A study of Mus musculus with 32 samples.

Results

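The comparison described here set H3K9me3 in testicular germ cells of mice heterozygous for Morc1, Morc1 (+/-), against that of Morc1 knockout mice, Morc1 (-/-), at postnatal day 3 (P3). The 2 deposited P3 peak lists held 160222 autosomal peaks, of 611602 peaks in the 8 lists of the series over autosomes, X and Y. They were divided by 1 rule: a peak that overlapped the other list by 1 bp or more was shared, and any other was unmatched, called het-only or KO-only. This gave 10637 het-only peaks of 77632 het peaks and 16975 KO-only peaks of 82590 KO peaks. The remaining 66995 het and 65615 KO peaks were shared.

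The cells, labelled as gonocytes from testis, were isolated in both genotypes from Mvh-Venus mice, whose transgene makes germ cells fluoresce. They were fixed and their chromatin sonicated, and libraries were made with a kit for ultralow input. Each genotype had 2 ChIP samples with an antibody against trimethylated lysine 9 of histone H3, and 1 peak list. There was no group with both Morc1 copies intact, so every difference below is between a reduced and an absent gene dose. The kind of knockout allele, the strain background and the number of animals per sample are not given in the sources used here. A list holds positions and no expression value, so the identity of the cells was not checked against marker genes.

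H3K9me3 is the histone mark of constitutive heterochromatin. It is written by methyltransferases such as SETDB1 and the SUV39H enzymes, read by HP1 proteins, and lies over transposons, pericentromeric repeats and arrays of zinc finger and chemosensory receptor genes. Male germ cells at this age are leaving the gonocyte state, in which silencing of transposons is set anew. MORC1, an ATPase of the Microrchidia family found in germ cells, is known for its part in transposon silencing in these cells and for male sterility when it is lost.

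Because there was 1 list per genotype, no replicate error and no test was available, and read depth is unknown. Intervals are 95% intervals that cover counting error only and treat neighbouring peaks as independent, which they are not. Where possible the spread over 19 autosomes is given beside them. All coordinates are on mm10, the build named in the submitters' processing notes, which is GRCm38, the assembly of the RefSeq gene table used for gene positions.

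The promoters of genes are where an unmatched call can be set beside a sequence. Of 16457 protein-coding genes with a promoter window (250 bases before to 50 after the gene's start, from RefSeq on GRCm38.p6), 49 had a window touched by a het-only peak (0.298%) and 95 had one touched by a KO-only peak (0.577%). Per peak, a promoter window was touched by 0.432% (0.324 to 0.576%) of het-only and 0.524% (0.426 to 0.645%) of KO-only peaks, with overlapping intervals. Among shared peaks the shares were 1.03% (het) and 1.19% (KO). The windows reached by unmatched peaks were poor in CpG, the dinucleotide that DNA methylation acts on and that is dense in housekeeping promoters. To show this, the windows of 3 genes under wide het-only peaks and of 4 under wide KO-only peaks are printed 5′ to 3′ on the gene's strand, with every CG in capitals.

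Gzmk, het-only, chr13:113180916-113181215, minus strand: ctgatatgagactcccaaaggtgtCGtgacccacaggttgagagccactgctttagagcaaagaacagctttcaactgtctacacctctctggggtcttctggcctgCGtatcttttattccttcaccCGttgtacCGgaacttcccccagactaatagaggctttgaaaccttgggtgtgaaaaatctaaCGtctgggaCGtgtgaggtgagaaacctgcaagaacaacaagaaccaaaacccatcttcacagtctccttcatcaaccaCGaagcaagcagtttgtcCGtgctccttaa

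Il23r, het-only, chr6:67491806-67492105, minus strand: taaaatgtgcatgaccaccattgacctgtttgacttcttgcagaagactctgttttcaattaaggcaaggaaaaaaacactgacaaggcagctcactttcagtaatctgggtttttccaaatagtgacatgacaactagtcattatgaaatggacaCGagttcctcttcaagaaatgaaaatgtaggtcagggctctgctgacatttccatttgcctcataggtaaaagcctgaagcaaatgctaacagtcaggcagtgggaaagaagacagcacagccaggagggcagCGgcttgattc

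Olfr648, het-only, chr7:104180357-104180656, minus strand: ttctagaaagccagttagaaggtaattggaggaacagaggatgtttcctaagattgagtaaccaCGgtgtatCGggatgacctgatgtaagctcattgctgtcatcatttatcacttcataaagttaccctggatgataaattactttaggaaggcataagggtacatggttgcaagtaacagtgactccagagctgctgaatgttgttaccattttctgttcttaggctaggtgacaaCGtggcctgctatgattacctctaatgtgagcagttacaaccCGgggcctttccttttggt

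Olfr1499, KO-only, chr19:13815539-13815838, minus strand: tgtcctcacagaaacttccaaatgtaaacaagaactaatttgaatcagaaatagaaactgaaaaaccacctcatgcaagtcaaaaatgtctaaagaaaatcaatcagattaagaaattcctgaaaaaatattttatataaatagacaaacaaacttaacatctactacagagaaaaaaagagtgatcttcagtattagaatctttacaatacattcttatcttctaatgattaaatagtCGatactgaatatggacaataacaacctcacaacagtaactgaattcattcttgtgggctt

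Dennd2c, KO-only, chr3:103140076-103140375, plus strand: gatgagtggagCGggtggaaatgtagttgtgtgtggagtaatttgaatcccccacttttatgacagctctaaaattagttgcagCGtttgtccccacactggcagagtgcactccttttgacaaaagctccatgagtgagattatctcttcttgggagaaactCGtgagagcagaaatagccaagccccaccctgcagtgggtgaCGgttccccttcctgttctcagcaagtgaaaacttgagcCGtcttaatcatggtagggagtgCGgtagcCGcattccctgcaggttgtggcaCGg

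Synpr, KO-only, chr14:13453708-13454007, plus strand: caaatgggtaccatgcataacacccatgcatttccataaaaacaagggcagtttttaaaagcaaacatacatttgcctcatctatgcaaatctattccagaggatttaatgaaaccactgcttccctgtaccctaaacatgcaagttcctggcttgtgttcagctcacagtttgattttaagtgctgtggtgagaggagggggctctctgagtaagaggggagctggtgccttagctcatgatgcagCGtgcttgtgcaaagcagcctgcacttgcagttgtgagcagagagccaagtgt

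Musk, KO-only, chr4:58285712-58286011, plus strand: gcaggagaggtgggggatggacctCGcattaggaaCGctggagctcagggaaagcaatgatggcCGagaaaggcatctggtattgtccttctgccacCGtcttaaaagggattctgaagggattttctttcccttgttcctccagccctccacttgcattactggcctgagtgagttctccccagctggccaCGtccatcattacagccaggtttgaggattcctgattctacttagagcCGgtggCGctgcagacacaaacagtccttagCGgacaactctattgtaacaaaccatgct

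The windows of Gzmk, Dennd2c and Musk each held 8 CG, that of Olfr648 held 4, that of Il23r held 2, and those of Olfr1499 and Synpr held 1. Over all 20085 promoter windows the median was 14, and 57.9% (57.2 to 58.6%) held at least 10. CG reads the same on both strands, so 1 strand was counted. Of the 51 windows touched by a het-only peak, 3 held at least 10 CG (5.88%, 2.02 to 15.9%), with a median of 3. Of the 101 windows touched by a KO-only peak, 8 did (7.92%, 4.07 to 14.9%), also with a median of 3. Of the 935 windows touched by a shared peak, 44 did (4.71%, 3.52 to 6.26%), with a median of 2. The CG content of promoters reached by unmatched calls was thus low in both genotypes, as it was under shared peaks, and the intervals of the 3 sets overlapped.

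Chemosensory receptors made up 15 of the 49 genes with a het-only promoter call (12 Olfr and 3 vomeronasal receptor genes) and 17 of the 95 with a KO-only one (11 and 6). These are shares of 30.6% (19.5 to 44.5%) and 17.9% (11.5 to 26.8%), against 7.66% (7.26 to 8.07%) of all genes with a promoter window. Receptor genes were not counted among the genes with a shared peak at the promoter. These shares are therefore not shown to be particular to unmatched calls. The other genes at these promoters were not grouped. The widest het-only peak at a gene start or end, of 6264 bp, covered the whole window of Olfr1298. The next lay at Gzmk, which encodes the lymphocyte protease granzyme K (5421 bp), and Il23r, which encodes the interleukin 23 receptor (5087 bp). They were followed by Olfr294 (5082 bp), Vmn1r14 (4899 bp), Olfr648 (4805 bp), Olfr44 (4484 bp) and Pcmtd2 (4429 bp). For Olfr294 and Pcmtd2, which had no promoter window, 1 kb windows at the gene's ends were used.

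On the KO side the widest such peak, of 6363 bp, lay at Olfr1499. It was followed by Dennd2c, a DENN-domain regulator of Rab GTPases (4046 bp), Synpr, a synaptic vesicle protein (3980 bp), and Olfr1510 (3792 bp). Musk, the receptor tyrosine kinase of the neuromuscular junction (3389 bp), Timd2, an immunoglobulin-domain receptor (3384 bp), Olfr1501 (3333 bp) and Fam81b (3281 bp, at a gene end) completed the group. Fam81b also had a het-only peak of 3959 bp at a gene end. At P0, the Gzmk and Olfr648 peaks overlapped a het call and no KO call, and those at Dennd2c, Synpr and Musk overlapped a KO call and no het call. The peaks at Il23r, Olfr1298, Vmn1r14, Olfr44, Olfr1499, Olfr1510, Timd2 and Olfr1501 overlapped calls of both genotypes at P0. Of all 49 genes with a het-only call at the promoter, 17 had a peak that overlapped a het call alone at P0, 10 calls of both genotypes, 6 a KO call alone and 16 none. Of the 95 genes with a KO-only call, 39 had a peak that overlapped a KO call alone, 34 calls of both genotypes, 3 a het call alone and 19 none. The same direction at P0 was thus found for 34.7% (22.9 to 48.7%) of the 49 genes, against 42.6% of all het-only peaks. For the 95 genes it was 41.1% (31.7 to 51.1%), against 24.4% of all KO-only peaks.

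Het-only peaks were more often wide than KO-only peaks. Of the het-only peaks, 16.3% (15.6 to 16.997%) were at least 3 kb wide, against 4.82% (4.51 to 5.16%) of the KO-only peaks. The shares were 27.0% and 17.6% when a shared peak had to be covered over at least 50% of its length, and 47.6% and 32.2% when only peaks of at least 2 kb were compared. At 5 kb and above there were 312 het-only peaks and 110 KO-only peaks, and at 10 kb and above 12 and 2. The medians were close, 1289 bp in het-only and 1257 bp in KO-only peaks, and differed mainly above them: the 75th percentile was 2412 bp against 1615 bp, and the 90th was 3619 bp against 2404.6 bp. Shared peaks were wider, with medians of 2787 bp in het and 3137 bp in KO. The shortest width in all but 1 list was 1001 bp, and 41.6% of het-only and 46.5% of KO-only peaks had that width or less.

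**Figure D1:**
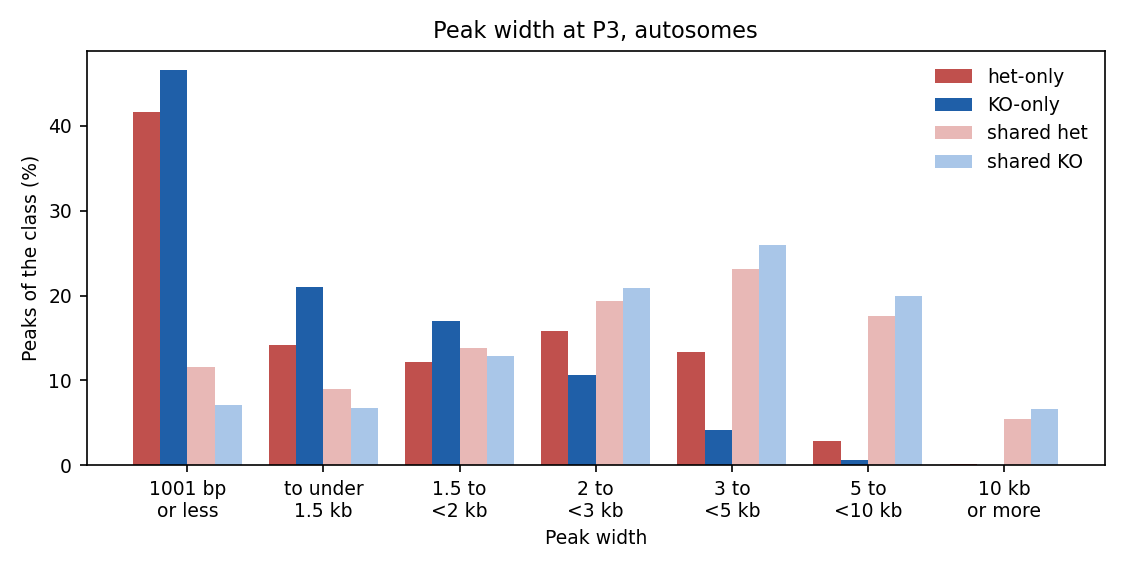
Share of peaks (%, y axis) in each width bin (x axis) for the 4 classes of autosomal P3 peaks; bars of 1 colour sum to 100%. Het-only peaks exceed KO-only peaks in every bin from 2 kb upward, and both lie below the shared peaks there.

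Under the 1 bp rule, the share of peaks unmatched fell with width in both lists, but at different rates, so that the order of the genotypes turned. Among peaks of 1001 bp or less, 36.4% (35.5 to 37.2%) were unmatched in het and 63.0% (62.1 to 63.8%) in KO. From there to under 2 kb the shares were 15.5% and 33.4%. From 2 to under 3 kb they were 11.4% (10.9 to 11.96%) and 11.7% (11.2 to 12.2%), with overlapping intervals. From 3 to under 5 kb, 8.40% (7.99 to 8.83%) of het and 4.01% (3.73 to 4.31%) of KO peaks were unmatched. At 5 kb and above it was 1.98% (1.77 to 2.21%) and 0.628% (0.521 to 0.756%). For all widths together, 13.7% of het and 20.6% of KO peaks were unmatched. The het excess from 3 kb upward rested on the 1 bp rule. With 50% cover, or with only peaks of at least 2 kb kept, nearly equal shares of het and KO peaks of that width were unmatched.

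**Figure D2:**
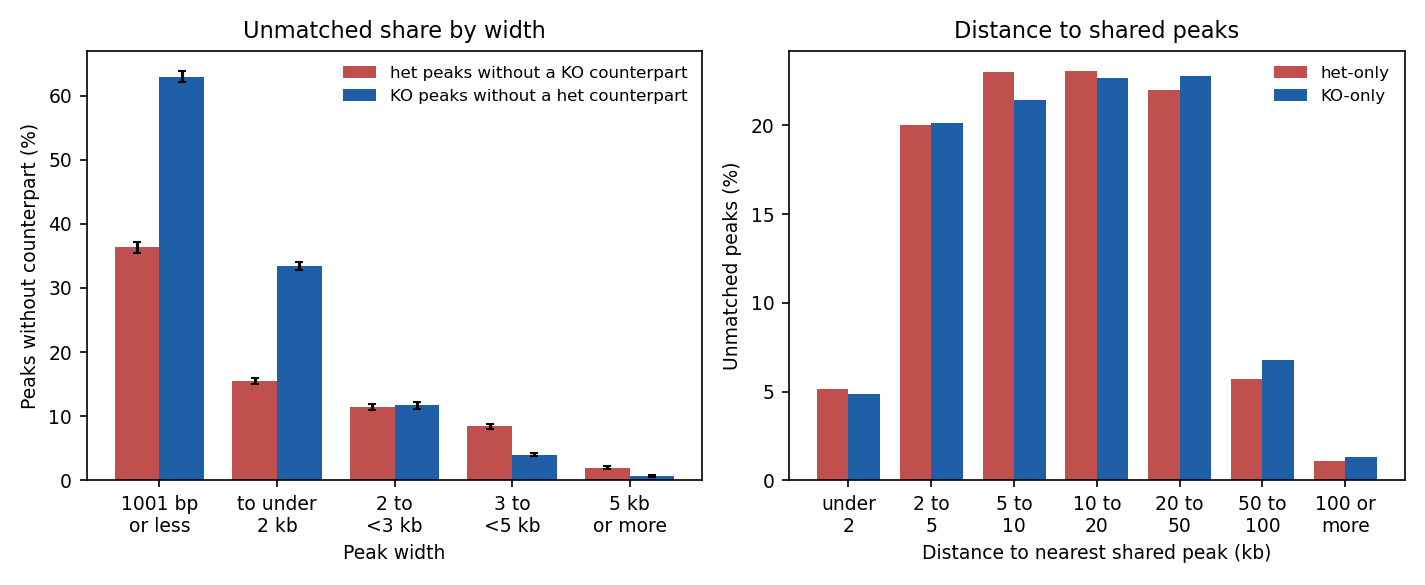
Left, peaks without a counterpart in the other genotype (%, y axis) by peak width (x axis), with 95% Wilson intervals; right, unmatched peaks (%, y axis) by distance to the nearest shared peak of their own list (kb, x axis). Under the 1 bp rule, KO exceeds het below 2 kb and het exceeds KO from 3 kb upward. The genotypes meet at 2 to under 3 kb (11.4% and 11.7%), and the distance distributions of the 2 classes nearly coincide.

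Unmatched peaks are 1 form in which the lists differ, and most of the base pairs called in 1 genotype alone lay elsewhere, at shared peaks. In het, 44.8 Mb were called that KO lacked, of which 20.1 Mb (44.8%) lay in het-only peaks and 24.8 Mb (55.2%) in parts of shared peaks that KO did not cover. In KO, 70.6 Mb were called that het lacked, with 25.1 Mb (35.5%) in KO-only peaks and 45.5 Mb (64.5%) at shared peaks. The shared calls formed 64460 groups, of which 61100 (94.8%) were 1 het peak with 1 KO peak. Within these pairs the KO peak was wider in 63.4% (63.0 to 63.8%), the het peak in 32.8% (32.4 to 33.2%), and the median KO minus het width was 226 bp. Groups in which several het peaks faced 1 KO peak numbered 2257, and the opposite arrangement 1013. At sites called in both genotypes, then, the KO intervals were on the whole longer and less divided. Among unmatched peaks of at least 3 kb under the 1 bp rule, the het list held more, 1732 against 819. That order was not kept at 50% cover (27.0% of 13537 het-only and 17.6% of 22140 KO-only peaks). Nor was it kept with only peaks of at least 2 kb (47.6% of 6493 and 32.2% of 10556).

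Unmatched peaks lay somewhat farther from shared peaks than shared peaks did from each other. The median distance from a het-only peak to the nearest shared het peak was 10.5 kb (10.3 to 10.9 kb), and from a KO-only peak to the nearest shared KO peak it was 11.2 kb (10.9 to 11.5 kb). A shared peak lay a median of 7.74 kb (het) or 8.01 kb (KO) from the next shared peak. In every list the smallest gap between 2 peaks was 1499 bp, so nothing nearer could occur. Within 5 kb of a shared peak lay 25.1% of het-only and 25.01% of KO-only peaks, and more than 50 kb away lay 6.81% and 8.11%. Measured to any peak of the other genotype, the medians were 8.52 kb for het-only and 9.88 kb for KO-only peaks. Unmatched calls were thus mostly separate sites some kilobases from shared ones and seldom far from them.

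The widest unmatched peaks were the nearest to shared ones. At 5 kb and above the median distance was 7.62 kb in both classes (6.66 to 8.89 kb in het-only and 6.10 to 9.07 kb in KO-only peaks). At 1001 bp or less it was 10.3 kb and 11.2 kb. Isolated calls were rare: 116 het-only (1.09%) and 223 KO-only peaks (1.31%) lay over 100 kb from any shared peak of their list. Of the shared peaks, 0.764% in het and 0.785% in KO lay that far from the next shared peak. Among the most distant het-only peaks were those between AF067061 and BC147527 on chromosome 13 (522.6 kb), between Gm40847 and LOC115488029 on chromosome 12 (522.4 kb), between Prl2c2 and Prl2c5 on chromosome 13 (380.9 kb), and between 9530057J20Rik and Gm15319 on chromosome 8 (287.2 kb). Each was called in at least 1 of the 6 lists of other stages. The most distant KO-only peak, 1816.2 kb from a shared peak, overlapped Gm3248 on chromosome 14. Next came peaks beyond Tcstv3 at the end of chromosome 13 (555.1 kb), between Zfp970 and Gm14322 on chromosome 2 (548.3 kb), within Hoxc4 on chromosome 15 (375.5 kb), and again between Prl2c2 and Prl2c5 (366.0 kb). The Hoxc4 peak, in a homeobox gene of the HoxC cluster, was the only 1 of the isolated peaks named here with no call in any of the 6 lists of other stages. At the Prl2c2 to Prl2c5 interval, which holds prolactin-family genes, a het-only and a KO-only peak of 1001 bp lay 13.3 kb from each other.

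Along the chromosome, unmatched sites of the same class stood next to each other somewhat more often than their share of sites. Het-only sites were 11.6% of the 92072 sites, and they made up 17.5% of the sites adjacent to a het-only site and 10.7% of those adjacent to a KO-only site. KO-only sites were 18.4% of all, 21.8% of the neighbours of KO-only sites and 17.1% of those of het-only sites. Most unmatched sites still stood singly: 68.4% of het-only and 61.7% of KO-only sites had no neighbour of their own class, and runs of 4 or more held 2.40% and 4.07%. On the scale of 1 Mb, 2292 of 2410 windows (95.1%) held both classes, 93 held KO-only peaks alone and 8 het-only peaks alone. The share of het peaks unmatched ranged from 11.8% (chromosome 14) to 15.0% (chromosome 3), and that of KO peaks from 18.9% (chromosome 17) to 23.3% (chromosome 19). No autosome lacked either class or turned the order of the 2 shares.

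Position relative to genes differed between the classes. The midpoint lay in the body of a protein-coding gene in 28.7% (27.8 to 29.5%) of the peaks called in het alone. Of the KO-only peaks 37.8% (37.04 to 38.5%) were genic in this sense, which is 9.11 percentage points more (7.98 to 10.2). The difference was above 0 on 19 of 19 autosomes and ranged from 2.22 points on chromosome 11 to 15.1 points on chromosome 6. Shared peaks were genic in 28.7% of cases in het and 28.8% in KO. Taken as a whole, het-only peaks therefore had the genic share of shared peaks, with a difference of -0.018 points (-0.936 to 0.914), above 0 on 10 of 19 autosomes. Within single P0 states, given below, the shares differed. KO-only peaks exceeded shared KO peaks by 8.93 points (8.13 to 9.74), on 19 of 19 autosomes.

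**Figure D3:**
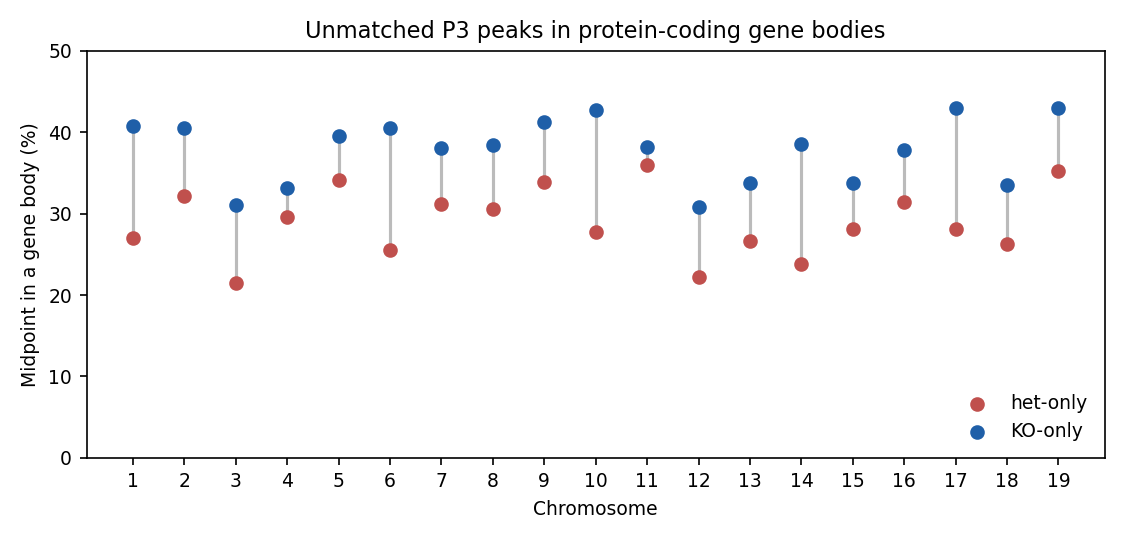
Share of unmatched P3 peaks with the midpoint in a protein-coding gene body (%, y axis) on each autosome (x axis), 1 point per class and chromosome. The KO-only point lies above the het-only point on all 19 chromosomes, by the least on chromosome 11 (2.22 points) and the most on chromosome 6 (15.1 points).

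The genic share moved with width in het-only peaks and less so in KO-only peaks. Among het-only peaks it was 33.4% at 1001 bp or less, 28.6% from there to under 2 kb, 25.4% from 2 to under 3 kb, 20.7% from 3 to under 5 kb and 14.4% (10.96 to 18.8%) at 5 kb and above. Among KO-only peaks the same bins held 36.4%, 39.7%, 38.4%, 34.8% and 30.9% (23.04 to 40.1%). The gap between the classes was 2.96 points (1.20 to 4.70) among the shortest peaks, and the intervals of the classes did not overlap in any of the 5 bins. Intergenic het-only peaks lay a median of 110.0 kb from the nearest protein-coding gene (103.4 to 116.6 kb), and intergenic KO-only peaks 95.3 kb (92.2 to 100.1 kb). More than 500 kb from any such gene lay 12.5% (11.9 to 13.1%) of het-only and 9.56% (9.13 to 10.01%) of KO-only peaks, against 12.3% and 12.1% of shared het and KO peaks.

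The P0 lists, which the rule did not use, gave a second view of the same sites. Of the het-only peaks at P3, 42.6% (41.6 to 43.5%) overlapped a het peak and no KO peak at P0, and 5.59% (5.17 to 6.05%) the reverse. Another 27.2% overlapped peaks of both genotypes and 24.7% of neither. Of the KO-only peaks, 24.4% (23.8 to 25.1%) overlapped a KO peak and no het peak at P0, and 2.43% (2.21 to 2.67%) the reverse, while 40.3% overlapped both and 32.9% neither. When only peaks of at least 2 kb were compared, 13.0% of KO-only and 38.5% of het-only peaks had the same direction at P0. The commonest P0 state of a het-only site was thus a call in het alone, and that of a KO-only site was a call in both genotypes.

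Width sharpened these states. Of the het-only peaks of 2 to under 3 kb, 67.3% were called in het alone at P0 and 0.715% in KO alone. Of those of 5 kb or more, 51.9% were called in both genotypes at P0, 47.1% in het alone and none of 312 in KO alone, which allows a share of up to 0.962%. Among KO-only peaks the share called in KO alone at P0 stayed between 21.8% and 26.8% over the 5 width bins, and the share called in both rose from 30.3% to 68.2%. In none of the 6 lists of the other stages were 19.2% of het-only and 26.3% of KO-only peaks called, against 4.78% and 4.69% of shared het and KO peaks. For het-only and KO-only peaks of 1001 bp or less these shares were 33.6% and 35.2%, and at 5 kb and above they were 0.321% and 1.82%. Shared peaks, which were wider, were not split by width, so the contrast with them is at unlike widths.

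**Figure D4:**
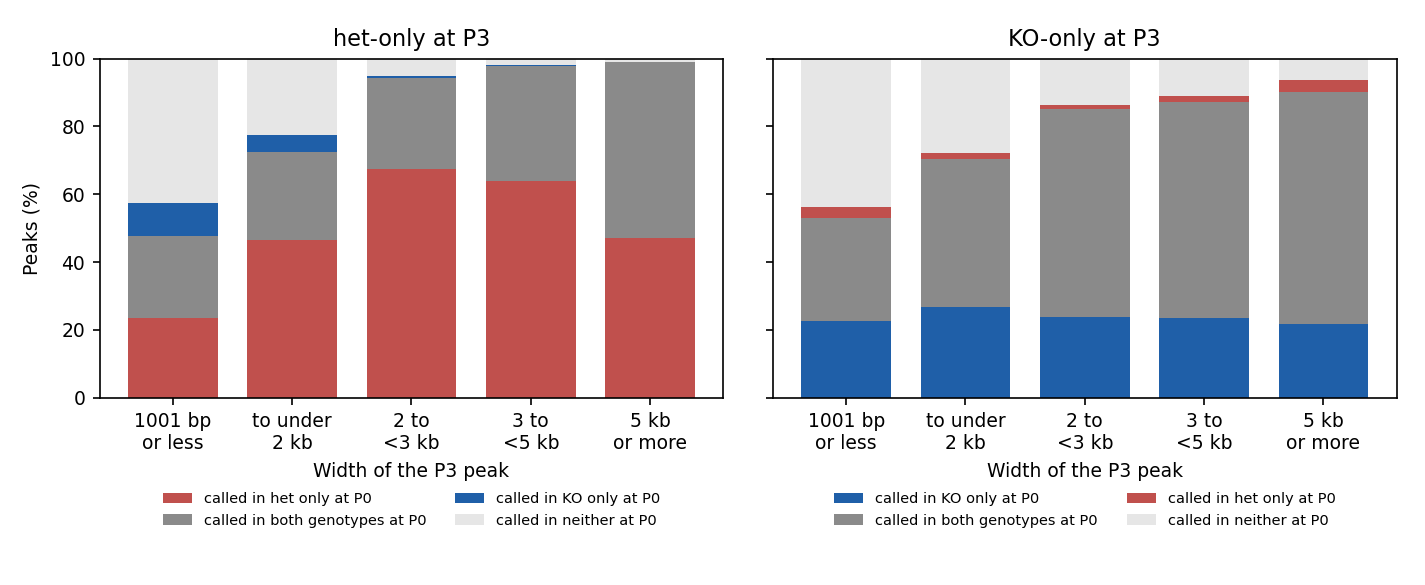
State at P0 of the peaks unmatched at P3 (%, stacked, y axis) by width of the P3 peak (x axis), het-only on the left and KO-only on the right. The share called in the same genotype alone at P0 reaches 67.3% in het-only peaks of 2 to under 3 kb and stays between 21.8% and 26.8% in KO-only peaks.

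The difference in genic share followed the P0 state. Among P3 peaks called in neither genotype at P0, 49.3% (47.4 to 51.2%) of het-only and 48.6% (47.3 to 49.9%) of KO-only peaks were genic, a difference of -0.704 points (-3.02 to 1.61). Shared P3 peaks called in neither P0 list were genic in 56.4% (het) and 56.9% (KO) of cases, above both unmatched classes. Among peaks with the same direction at P0 and P3 the genic shares were 20.9% (19.8 to 22.1%) in het-only and 39.2% (37.8 to 40.7%) in KO-only peaks. Among peaks called in both genotypes at P0 they were 20.01% (18.6 to 21.5%) and 29.1% (28.1 to 30.2%). Shared peaks in that state were genic in 25.5% (het) and 25.7% (KO) of cases, above the het-only and below the KO-only share. Among peaks called at P0 in the opposite genotype alone the order was reversed, with 38.3% (34.5 to 42.3%) of 595 het-only and 19.4% (15.9 to 23.5%) of 412 KO-only peaks genic. Peaks absent from both P0 lists had the highest genic share of the 4 states in both classes. Some of them had been called before birth, since 2626 het-only and 5579 KO-only peaks were in neither P0 list and 2037 and 4457 in none of the 6 lists of other stages.

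At E16.5, 29.4% of the het-only sites were called in both genotypes, 8.30% in het alone and 2.66% in KO alone. Of the KO-only sites, 30.4% were called in both, 6.38% in het alone and 2.70% in KO alone. At E13.5, 73.4% of het-only and 81.3% of KO-only sites were called in neither genotype. At that stage KO alone exceeded het alone in both classes, with 5.94% against 3.02% of het-only sites and 5.31% against 2.29% of KO-only sites. The direction seen at P3 was thus found at P0 for both classes. At the embryonic stages, sites of both classes called in 1 genotype were mainly het calls at E16.5 and KO calls at E13.5. The whole het list was also the larger at E16.5 (74722 against 70487 peaks), and the whole KO list at E13.5 (55136 against 50191).

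Gene bodies were then taken one by one. Of 20665 autosomal protein-coding genes, 2165 (10.5%) were touched by a het-only peak and 3641 (17.6%) by a KO-only peak. Both kinds fell in 1033 genes, het-only peaks alone in 1132 and KO-only peaks alone in 2608. Gene length went with these sets: the median was 215.7 kb for genes with both kinds, 41.1 kb for het-only alone, 63.1 kb for KO-only alone and 12.2 kb for genes with neither. The genes ranked first by number or net length of unmatched peaks were between 354.6 kb (Cnbd1) and 2270.5 kb (Ptprd) long.

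The largest excess of KO-only calls lay in Dpp10, an auxiliary subunit of voltage-gated potassium channels (1513.7 kb on chromosome 1). It held 33 KO-only peaks of 70.7 kb in all and 6 het-only peaks of 8.46 kb. Counting every call in the gene, het had 235.9 kb against 236.8 kb for KO at E13.5. The lengths were 425.3 kb against 353.5 kb at E16.5, 213.6 kb against 285.3 kb at P0 and 176.4 kb against 268.1 kb at P3. KO was the lower at E16.5 and the higher on both postnatal days. The whole autosomal lists had the same order. They covered 292.6 Mb in het against 268.7 Mb in KO at E16.5, 309.0 against 324.0 Mb at P0 and 278.0 against 303.8 Mb at P3. Csmd1, a large transmembrane protein that regulates complement (chromosome 8), held 37 KO-only peaks of 66.7 kb and 9 het-only peaks of 22.1 kb. Its full called length was 341.7 kb for het against 362.8 kb for KO at E13.5, 551.1 kb against 386.8 kb at E16.5, 322.8 kb against 402.9 kb at P0 and 319.96 kb against 463.5 kb at P3. As in Dpp10 and in the whole lists, KO was the lower at E16.5.

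Khdrbs2, which encodes an RNA-binding splicing regulator (chromosome 1), held 17 KO-only peaks of 38.6 kb and 2 het-only peaks of 6.46 kb. Its full length of calls differed little at P0, 141.9 kb for het against 136.2 kb for KO, and was 77.8 kb against 162.4 kb at P3, after 285.8 kb against 234.7 kb at E16.5. Luzp2 showed the same course, from 113.8 kb against 112.2 kb at P0 to 92.7 kb against 137.7 kb at P3. It held 11 KO-only peaks of 27.8 kb and 1 het-only peak of 2.40 kb. In both genes the het list was the lower at P3, after near equality at P0.

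The other genes with a large net KO-only length were Thsd7b (30.5 kb KO-only against 6.68 kb het-only), Arhgap26 (21.9 kb against none), Opcml, an adhesion protein of the IgLON family (20.6 against 2.002 kb), and Dlgap2, a postsynaptic scaffold (18.4 kb against none). By number of KO-only peaks, Cntnap2, a neurexin-like adhesion protein (21 peaks, against 9 het-only), Cdh13, a cadherin anchored by a lipid (16 against 4), and Ctnna3, an alpha-catenin (15 against 4), also ranked among the first 8.

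The largest excess of het-only calls lay in Agbl4, a carboxypeptidase that trims glutamates from tubulin (1266.7 kb on chromosome 4). It held 14 het-only peaks of 34.8 kb and 5 KO-only peaks of 8.69 kb. Over all calls, het had 28.5 kb against 33.1 kb for KO at E13.5. It had 73.4 kb against 76.2 kb at E16.5, 144.9 kb against 114.3 kb at P0 and 118.5 kb against 103.4 kb at P3. Het was the higher only on the postnatal days. Sugct, a glutarate CoA-transferase (chromosome 13), followed with 33.7 kb het-only and 13.8 kb KO-only, and 137.9 against 118.3 kb of all calls at P0 and 136.8 against 116.4 kb at P3.

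Zfhx3, a zinc finger homeobox transcription factor (chromosome 8), changed direction after birth. Het had 58.0 kb against 76.6 kb for KO at P0, and 96.0 kb against 64.0 kb at P3, with 22.5 kb of het-only and 4.97 kb of KO-only peaks at P3. Lrrc4c, a netrin-G ligand, had 21.1 kb against 3.17 kb of unmatched length, and Fgf14, an intracellular regulator of sodium channels, had 17.3 against 3.26 kb. Cnbd1 (18.97 against 3.003 kb), Cpq, a carboxypeptidase (16.6 against 3.003 kb), and Marchf1, a membrane ubiquitin ligase (16.8 against 4.22 kb), completed the first 8. By number of het-only peaks the list also held Naaladl2 (14), Ptprd, a receptor tyrosine phosphatase (12), Pcdh15, a protocadherin of hair cells (11), Csmd1 (9) and Dlg2, a synaptic scaffold (9). KO-only peaks numbered 12 in Naaladl2, 14 in Ptprd, 11 in Pcdh15, 37 in Csmd1 and 11 in Dlg2.

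The targeted gene, Morc1 on chromosome 16, held 2 het-only peaks of 3.21 kb and 1 KO-only peak of 1.00 kb, and no shared peak. Within 5 Mb of it, 14.7% of het peaks (11.3 to 18.9%) and 19.2% of KO peaks (15.4 to 23.7%) were unmatched, against 14.8% and 20.3% on the whole chromosome. These values do not check the knockout, since peaks hold no expression.

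Between genes, the 18550 intervals that separate protein-coding genes carried nearly equal unmatched lengths of both classes, 10.4 kb het-only and 10.8 kb KO-only per Mb. The interval from Pcdh7 to G6pd2 (3.68 Mb, chromosome 5) held the most het-only sequence, 96.1 kb against 34.7 kb KO-only. It was followed by Cntnap5b to Cdh20 (85.6 against 31.1 kb, chromosome 1), Sox11 to Dcdc2c (72.6 against 17.6 kb, chromosome 12), Slc39a10 to Tmeff2 (71.2 against 39.6 kb, chromosome 1) and Snx16 to Ralyl (68.0 against 19.9 kb, chromosome 3). The interval of Sox11, a developmental transcription factor, to Dcdc2c was the shortest, 1.10 Mb, and the densest, with 66.3 kb of het-only sequence per Mb.

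On the KO side, Cdh8 to Cdh11 (3.21 Mb, chromosome 8), between 2 classical cadherin genes, held the most, 107.8 kb against 28.7 kb het-only. Tenm3 to Aga (89.1 against 26.2 kb, chromosome 8), Cdh6 to Cdh9 (79.3 against 33.3 kb, chromosome 15), Gm6749 to Grm7 (73.5 against 9.61 kb, chromosome 6) and Gm597 to Phf3 (69.8 against 22.9 kb, chromosome 1) followed. Gm6749 to Grm7, next to a metabotropic glutamate receptor gene, had the highest density, 41.7 kb of KO-only sequence per Mb.

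The first 2 of the longest het-only peaks lay between Sox11 and Dcdc2c, at chr12:28224926-28241635 (16.7 kb) and chr12:27881239-27896185 (14.9 kb). In the second, the P0 lists carried 14.9 kb (het) and 14.7 kb (KO), the E16.5 lists 14.9 kb each, and the P3 KO list none. A peak of 13.3 kb lay within Zfhx3 at chr8:108661412-108674665, where calls grew with age in both genotypes up to P0 (6.55 kb for het, 8.76 kb for KO) and KO had none at P3. A peak of 13.0 kb between the olfactory receptor genes Olfr578 and Olfr582, at chr7:103004586-103017628, had 12.8 kb called in het and none in KO at P0, and at most 1.00 kb in any embryonic list. The fifth lay between Camk1g and Plxna2 at chr1:194408096-194420857 (12.8 kb), with 12.3 and 11.3 kb in het and KO at P0. In 4 of these 5 sites, KO had called at least 8.76 kb at P0. In the other, between the 2 Olfr genes, it had not.

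The longest KO-only peak lay between Cdh8 and Cdh11, at chr8:101156094-101173432 (17.3 kb), with 6.65 kb (het) and 6.78 kb (KO) called at P0. The next lay between Dnah5 and Ctnnd2, at chr15:29170094-29184150 (14.1 kb), where both E16.5 lists carried 12.4 kb and P0 carried 1.177 kb (het) and 6.12 kb (KO). A peak of 9.89 kb within Csmd1, at chr8:16629270-16639157, had 1.73 kb (het) and 8.66 kb (KO) at P0. The remaining 2, between Cfl2 and Baz1a at chr12:54866176-54875600 (9.43 kb) and between the cathepsin genes Cts8 and Cts7 at chr13:61282656-61291584 (8.93 kb), were called over at least 8.28 kb in both genotypes at P0. Each of the 5 had been called in both genotypes at E16.5.

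**Figure D5:**
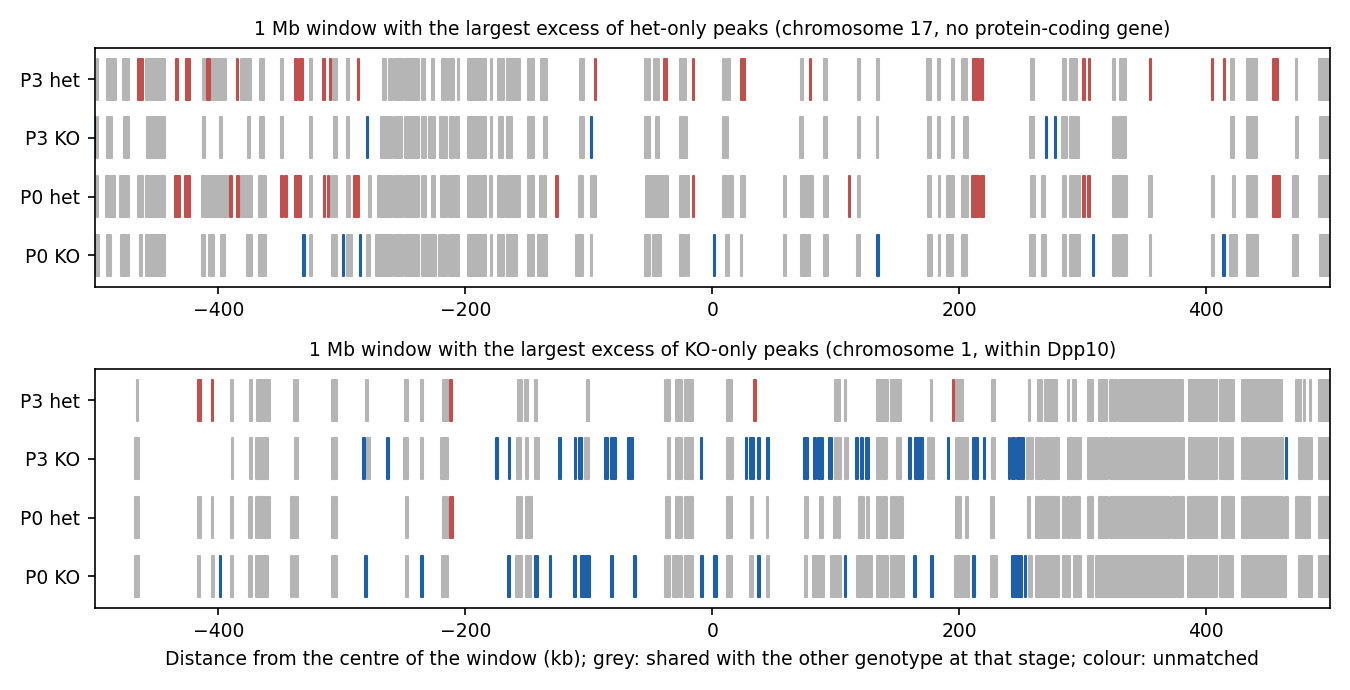
Peaks of both genotypes at P3 and P0 in the 1 Mb windows with the largest excess of het-only (top, chromosome 17) and of KO-only peaks (bottom, chromosome 1, inside Dpp10); the x axis is the distance from the window's centre in kb, grey bars are shared with the other genotype at that stage and coloured bars are unmatched. At P3 the upper window holds 23 unmatched het peaks and the lower 31 unmatched KO peaks; at P0 they hold 18 and 20.

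The 1 Mb windows with the greatest excess showed both patterns at close range. Window 92000001 to 93000000 of chromosome 17, which holds no protein-coding gene, had 23 het-only peaks and 4 KO-only peaks with their midpoint inside. Window 124000001 to 125000000 of chromosome 1, inside Dpp10, had 31 KO-only and 5 het-only peaks. The next on the KO side held Khdrbs2 (27 against 3) and Csmd1 (27 against 6). On the het side they held Cntnap5a (17 against 4) and, on chromosome 17, no gene (16 against 4). In the map, shared peaks are interspersed with the unmatched ones in both windows, and up to 3 unmatched het peaks in the upper window and 8 unmatched KO peaks in the lower stood in a row with no shared peak between them.

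Gene groups were described with 5 kb added on each side of the gene. Over all protein-coding genes, 13.6% were touched by a het-only and 21.6% by a KO-only peak, and the median net length was 0 kb, as it was in each of the groups below. Zinc finger genes, which encode DNA-binding proteins that include the KRAB zinc finger repressors, had the opposite order: 81 of 388 (20.9%, 17.1 to 25.2%) were touched by het-only and 54 (13.9%, 10.8 to 17.7%) by KO-only peaks. Their summed unmatched length was 144.9 kb in het and 115.1 kb in KO. Zfp958 (4.65 kb) and Zfp654 (4.61 kb) carried het-only calls alone, Zfp423 (7.88 kb) and Zfp607a (6.17 kb) KO-only calls alone, and Zfp804b carried both (5.29 and 6.66 kb).

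Chemosensory receptor genes followed the order of all genes at lower shares, which were not adjusted for gene length. Their median lengths were 0.95 kb (olfactory) and 0.96 kb (vomeronasal), against 17.5 kb for all genes. Of 1104 olfactory receptor genes, 73 (6.61%) were touched by het-only and 121 (11.0%) by KO-only peaks. Of 354 vomeronasal receptor genes, 30 (8.47%) and 46 (13.0%) were. The receptor genes with most het-only length were Olfr1298 (6.26 kb), Olfr648 (5.81 kb), Olfr294 (5.08 kb), Vmn2r11 (5.77 kb), Vmn1r14 (4.90 kb) and Vmn1r195 (3.64 kb). Those with most KO-only length were Olfr1499 (5.96 kb), Olfr1501 (5.88 kb), Olfr1099 (4.26 kb), Vmn2r1 (4.48 kb), Vmn2r97 (4.15 kb) and Vmn2r51 (3.99 kb). Apart from Vmn2r11 and Vmn2r51, which each had 1.00 kb of the other class, these 12 genes had calls of a single class.

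Adhesion genes of synapses and axons, which are long, were touched most often, 35 of 69 (50.7%, 39.2 to 62.2%) by het-only and 39 (56.5%, 44.8 to 67.6%) by KO-only peaks. The median gene in this group was 147.7 kb long, against 17.5 kb for all genes. The clustered protocadherins, which are neuronal surface proteins, were touched in 21 of 57 cases (36.8%) by het-only and 10 (17.5%) by KO-only peaks. Some of these genes overlap each other, so 1 peak can count in several of them: Pcdhga1, Pcdhga2 and Pcdhga3 all carried 2.002 kb of het-only and 1.00 kb of KO-only calls. Keratin genes were touched in 7 and 13 of 109 cases, among them Krtap19-4 (2.34 kb het-only) and Krtap10-4 (3.75 kb KO-only). Hox genes were touched in 2 and 4 of 39 cases.

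Genes of germ cells and meiosis were touched in 10 of 43 cases (23.3%, 13.2 to 37.7%) by het-only and 8 (18.6%, 9.74 to 32.6%) by KO-only peaks, with 17.4 kb of each. Tex14, which encodes a protein of the bridges between germ cells (2.26 kb), and Stag3, a meiotic cohesin subunit (2.25 kb), carried het-only calls. Tdrd9 (2.26 kb) and Mael (1.62 kb), both of the piRNA pathway that directs transposon silencing, carried KO-only calls. Zbtb16, a transcription factor of spermatogonia, carried 5.59 kb of het-only and 7.62 kb of KO-only calls. No promoter window of this group was touched by an unmatched peak, among 37 genes that had one.

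Imprinted genes were touched in 8 and 9 of 40 cases, with 9.18 kb of KO-only calls at Snrpn against 5.14 kb het-only, and 3.85 kb of KO-only calls at Kcnq1. Heterochromatin and H3K9 pathway genes were touched in 6 and 7 of 28 cases. Atf7ip, a partner of SETDB1, carried 4.95 kb het-only and 3.17 kb KO-only, and Ehmt1, an H3K9 methyltransferase, 3.67 kb KO-only. Genes that mark somatic cells of the testis were touched in 1 of 16 cases by a het-only peak (Adgre1, a macrophage gene, 1.00 kb, with 1.27 kb KO-only) and in 5 by KO-only peaks. The latter included Cyp11a1, the first enzyme of steroid synthesis (5.23 kb), Ptprc of leukocytes (3.67 kb) and Pecam1 of endothelium (3.05 kb). The intervals of each of these 4 small groups held the share of all genes in both directions. The calls over somatic genes show H3K9me3 positions and not expression, and the part of other cell types in the lists was not tested.

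The unmatched shares were also set beside those of the other stages. Among KO peaks, the P3 share (20.6%) lay between those of P0 (19.6%) and E13.5 (21.5%), while E16.5 had 6.72%. Among het peaks, the P3 share (13.7%) was nearest to that of E16.5 (13.6%), while P0 had 11.6% and E13.5 had 11.4%. The genic gap between KO-only and het-only peaks was 18.9 points at P0 and 9.11 points at P3, 0.227 points at E13.5 and 5.32 points at E16.5. Of the P0 het-only peaks 20.8% were genic, below the 26.3% of shared peaks at that stage, whereas at P3 the het-only share of 28.7% equalled the shared one. KO-only peaks were genic in 39.6% of cases at P0 and 37.8% at P3. The lower gap at P3 thus went with a higher genic share of the het-only peaks. No test of this difference between stages was available, with 1 list per genotype and stage.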

How the data were processed

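H3K9me3 was profiled by ChIP-seq in 16 samples and histone H3 in 16 more; the H3 samples entered no comparison. Per the submitters' processing notes, bcl2fastq 2.20, cutadapt 1.18, Bowtie2 2.3.4.1, deepTools 3.5.0, HOMER 4.10 and the build mm10 were used. The notes give no role, threshold, control or handling of replicates. The authors deposited 8 lists, 1 per stage and genotype, of other values than counts: the boundaries of each peak, in base pairs, with no height, score or p-value. Each list was assigned to its group by stage and genotype and treated as 1 pooled call set, so depth is unknown.

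Peaks on chromosomes 1 to 19 were kept, with BED starts read as 0-based. Overlap, covered length and edge-to-edge distance were computed in Python 3.11.15 with numpy 2.4.6 and pandas 2.3.3, and tested on simulated data with known answers. Shares have 95% Wilson intervals, differences Newcombe's, and medians binomial order-statistic intervals. Genes are 20665 autosomal protein-coding entries of RefSeq GRCm38.p6; 4208 of them had no promoter window. A peak is genic by its midpoint.

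Genes named are, per direction: the first 8 by number of unmatched peaks, by net unmatched length and by width of an unmatched peak at the promoter or gene ends; the first 5 intergenic intervals, longest peaks and most isolated peaks; and up to 3 members of each gene group. An isolated het-only peak that this rule names is not reported here. The peaks, lists and rules were chosen with earlier results of these data known. Alternatives varied the overlap, the peaks kept and the gene assignment.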

Additional observations from a re-analysis of the deposited data

Results flagged for a closer look

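Chromosome X, outside the autosomal comparison, also carried unmatched peaks at P3. There were 653 het-only peaks there, 18.8% of 3478 (17.5 to 20.1%), and 864 KO-only peaks, 23.9% of 3612 (22.6 to 25.3%). Of them, 10.9% of het-only and 6.02% of KO-only peaks were at least 3 kb wide. The genic shares were 13.0% (10.7 to 15.8%) and 18.8% (16.3 to 21.5%), lower than on the autosomes and in the same order. The share of unmatched peaks was higher in KO than in het by 6.85 points at P3 (6.48 to 7.22), and at E16.5 the difference was -6.93 points (-7.23 to -6.62), in the opposite direction. The difference between the stages was not tested, since each stage had 1 list per genotype.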

How the results depend on the processing

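Of 61 values for 9 results under alternatives, 38 stayed within the main interval, or within 1.5 times a count, 22 moved and 1 changed sign. KO-only peaks outnumbered het-only peaks under the main setting and all 7 alternatives that gave both counts, from 1.12 times with equal numbers of the longest peaks to 1.64 times. Joining peaks across gaps of at most 1 kb could change nothing, since no gap was under 1499 bp. That setting is still counted among the 7, and its values among the 38. With at least 50% of a peak's length covered, the shares of at least 3 kb became 27.0% (het-only) and 17.6% (KO-only), the median distances 11.2 and 11.9 kb, and the shares with the same direction at P0 35.5% and 21.0%. With a counterpart allowed up to 1 kb away, the het-only share with the same direction at P0 became 43.7%. Equal numbers of the longest peaks gave 15.3% and 5.91% for peaks of at least 3 kb and 37.7% for the het-only share at P0. Keeping only peaks of at least 2 kb in both lists gave 6493 het-only and 10556 KO-only peaks, 47.6% and 32.2% of at least 3 kb, median distances of 16.7 and 18.6 kb, a genic difference of 12.2 points, and 38.5% and 13.0% with the same direction at P0. The genic difference was 12.3 points by base pairs and 10.3 points with genes of any kind. Alternatives chosen after seeing the data gave 2.96 points among unmatched peaks of 1001 bp or less and, among those in neither P0 list, -0.704 points, a change of sign within its interval; their construction leaves fewer peaks, and the cause was not tested. No paired analysis was possible because each genotype had 1 list and the columns carry no replicate number. Depth is unknown and limits both peak number and width.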

Other observations

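Runs of successive unmatched sites, with no site of another class between them, named places where several calls of 1 genotype stood together. The longest het-only run held 7 sites over 56.9 kb between P2ry1 and Rap2b on chromosome 3 (61221941 to 61278811), with no protein-coding gene inside. Runs of 6 lay between Etv1 and Arl4a on chromosome 12 and within Agbl4 on chromosome 4.

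Of the KO-only runs, 3 held 8 sites. One spanned 137.7 kb on chromosome 19 (29139750 to 29277498) over Rcl1 and Jak2, the latter a cytokine receptor kinase, and another 240.2 kb on chromosome 6 between Npvf and Gm38821. The other spanned 212.2 kb on chromosome 7 (142359153 to 142571364) and held the cathepsin gene Ctsd and the muscle troponin genes Tnni2 and Tnnt3, next to the imprinted growth factor gene Igf2. These runs were picked by length after their values were seen.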
